A study of Mus musculus with 6 samples.

Results

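The MYC network is a family of 10 genes here: the MYC proteins Myc, Mycn and Mycl, their partner Max, the repressors Mxd1, Mxd3, Mxd4, Mxi1 and Mnt, and the Max-like protein Mlx. All probes whose gene symbol was one of these names, or an older synonym of one, were taken, which gave 19 probes for the 10 genes among 41174 gene probes for 18295 genes. The probes were measured on 6 mouse arrays with 2 colours, which compare 3 induced pluripotent stem (iPS) cell lines with a pool of embryonic stem (ES) cell RNA. The lines iPS1, iPS4 and iPS5 were each expanded from a picked colony of OG2 embryonic fibroblasts, cells in which Oct4 activity is reported by green fluorescence. Those fibroblasts had received pMX retroviruses for c-Myc, Klf4, Sox2 and Oct4 together with TBP and the TFIID subunits TAF13, TAF12, TAF11, TAF10, TAF9, TAF7, TAF6, TAF5, TAF4b, TAF4 and TAF3. The pooled ES cells were OG2 cells with no such transduction given in the labels, and both cell types grew with LIF on irradiated fibroblast feeders. Each line had 2 arrays, one with the iPS RNA in the red dye Cy5 and one with it in the green dye Cy3. Whether these held separate RNA is not given, so a line counted as 1 replicate, and the ES pool was 1 sample whose own spread between cultures was not measured.

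MYC proteins bind DNA as heterodimers with MAX at the E-box CACGTG and recruit coactivators to genes of ribosome assembly, metabolism and the cell cycle. The MXD proteins and MNT compete for MAX at the same sites and bring SIN3 and histone deacetylase complexes, which repress. In mouse ES cells Myc is a target of LIF and STAT3 signals, and Myc and Mycn together keep the cells growing and self-renewing. Myc was also one of the transduced genes, so all lines, but not the ES cells, may carry transcripts of the vector.

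The promoters that hold the E-box are shown first, because this is the word that the proteins of the network themselves bind. They run from 250 bases before to 50 after each RefSeq gene start on the mouse build GRCm38.p6, 5′ to 3′ on the gene's strand, with CACGTG in capitals. The sequence table had 11 promoters for 9 of the members, and Myc had no entry in it. Max was at chr12:76962199-76962498 (minus strand), Mnt at chr11:74830674-74830973 (plus strand), Mlx at chr11:101087040-101087339 (plus strand) and Mxd4 at chr5:34187661-34187960 (minus strand).
Max: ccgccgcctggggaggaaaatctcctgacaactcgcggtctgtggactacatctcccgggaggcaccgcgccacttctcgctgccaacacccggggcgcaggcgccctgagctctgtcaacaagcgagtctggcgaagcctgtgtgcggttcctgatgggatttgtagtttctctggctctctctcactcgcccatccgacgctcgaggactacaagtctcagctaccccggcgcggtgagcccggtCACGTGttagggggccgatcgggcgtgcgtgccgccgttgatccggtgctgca
Mnt: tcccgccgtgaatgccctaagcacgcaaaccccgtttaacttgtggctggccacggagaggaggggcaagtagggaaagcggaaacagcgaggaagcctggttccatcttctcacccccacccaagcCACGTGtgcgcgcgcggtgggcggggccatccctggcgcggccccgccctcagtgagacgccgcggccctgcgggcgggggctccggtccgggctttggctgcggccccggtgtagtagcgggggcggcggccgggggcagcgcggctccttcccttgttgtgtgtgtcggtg
Mlx: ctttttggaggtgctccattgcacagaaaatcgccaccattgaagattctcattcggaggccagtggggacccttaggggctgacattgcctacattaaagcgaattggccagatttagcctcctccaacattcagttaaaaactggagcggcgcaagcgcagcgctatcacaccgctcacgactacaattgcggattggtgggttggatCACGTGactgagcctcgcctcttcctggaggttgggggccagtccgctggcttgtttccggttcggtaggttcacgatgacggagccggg
Mxd4: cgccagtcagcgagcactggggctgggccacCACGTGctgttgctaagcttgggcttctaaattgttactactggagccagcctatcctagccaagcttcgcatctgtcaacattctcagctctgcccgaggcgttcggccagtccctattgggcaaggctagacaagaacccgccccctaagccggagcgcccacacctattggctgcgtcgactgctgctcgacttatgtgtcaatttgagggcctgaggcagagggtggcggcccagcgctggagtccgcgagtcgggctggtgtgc
The E-box began at position -3 in Max, -123 in Mnt, -40 in Mlx and -219 in Mxd4, counted from the gene start. CACGTG reads the same on both strands, and 7.15% of 32817 mouse promoters of this length held it. Among the genes commonly raised by MYC that had a promoter in the table, 11 of 35 held it in at least 1 of their promoters (31.4%).

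The Mycn promoter, at chr12:12941787-12942086 (minus strand), is shown for its repeated match to the E2F word TTTGGCGC, read by the cell cycle factors of that name, and for a match to the TCF word CTTTGA, read by the effectors of Wnt signals. Both are in capitals, the TCF word as its reverse complement, since it lies on the other strand.
Mycn: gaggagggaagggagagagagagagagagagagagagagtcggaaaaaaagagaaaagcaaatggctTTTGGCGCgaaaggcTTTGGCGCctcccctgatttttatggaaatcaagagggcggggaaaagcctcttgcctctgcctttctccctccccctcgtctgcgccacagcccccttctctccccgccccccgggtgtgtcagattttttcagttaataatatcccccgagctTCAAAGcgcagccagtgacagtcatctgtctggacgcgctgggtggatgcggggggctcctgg
The E2F words began at positions -183 and -168 and the TCF word at -13, with no overlap between matches. Searched on both strands, the E2F word was in 0.515% of the 32817 promoters and the TCF word in 16% of them. The STAT word TTCNNNGAA was in 8.29% of all promoters and in 0 of the 11 member promoters. These matches describe letters in the window only, and no binding was measured.

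Of the 10 genes, Myc alone was called higher in the mean of the 3 lines, and it was above the ES pool on all 6 arrays. Its closest relative Mycn was higher in iPS1 and iPS4 and lower in iPS5, and the repressor Mnt was lower in iPS1 and higher in iPS4 and iPS5. The other members lay within a log2 ratio of 0.17 of the pool in the mean of the lines, in both directions. Ratios are log2 of iPS over ES after background correction and loess, so that 1 stands for a doubling, and a gene was called where limma's moderated test had an adjusted p under 0.05. In the mean of the lines 5.21% of the 18295 genes were called higher and 4.95% lower, 10.2% in all, which sets the background for 1 member higher and 0 lower. At an unadjusted p under 0.05, limma gave 3 members: Myc and Mxd4 above the pool and Mxi1 below it. The sign of Mxd4 rests on 1 of its 3 probes, which had 1 channel not above background on each iPS5 array. The median over the 10 members was 0.11, against a median of -0.0049 over all genes.

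**Figure D1:**
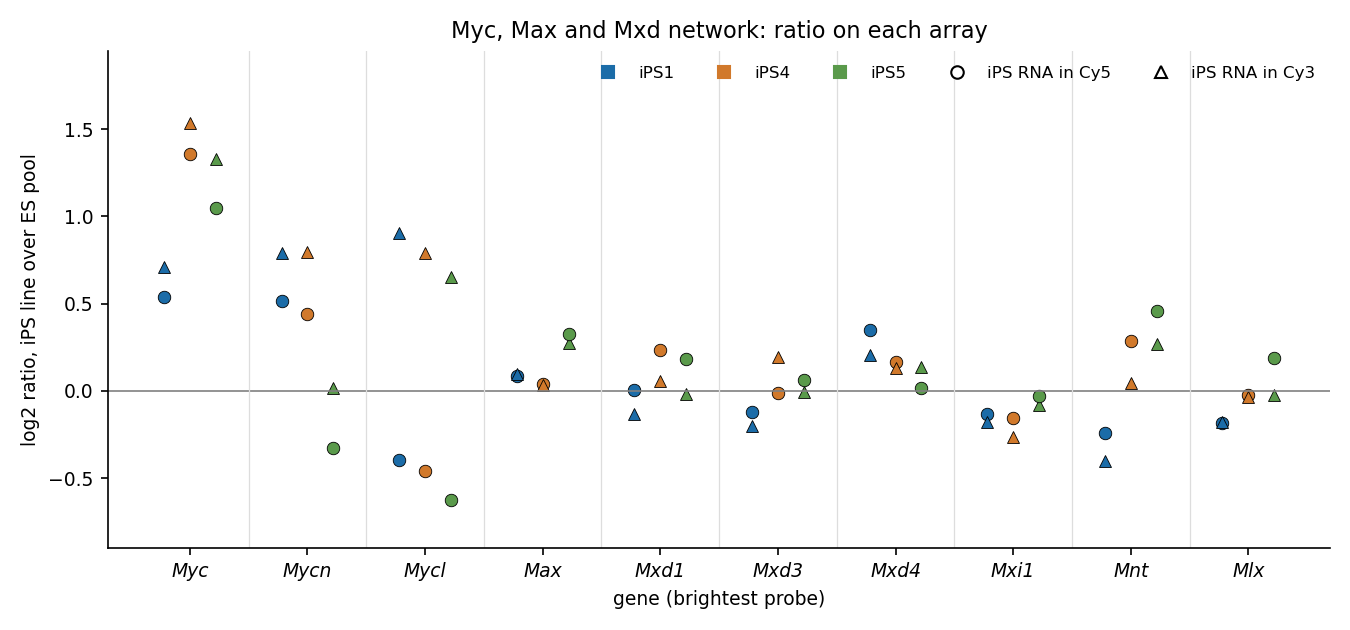
Each point is the log2 ratio of the iPS line over the ES pool (y axis) on 1 array for the brightest probe of a gene (x axis), coloured by line, with circles where the iPS RNA was in Cy5 and triangles where it was in Cy3. All 6 points of Myc lie above 0, Mycn separates iPS5 from the other lines, and Mycl separates by dye and not by line.

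The single lines were also tested on their own, against the spread between duplicate arrays, which may be technical, and with the dye as a term. All 3 comparisons share the one ES pool. In iPS1, 4 members were higher (Myc, Mycn, Mycl and Mxd4) and 3 lower (Mxi1, Mnt and Mlx), where 21.5% of all genes were called higher and 21.2% lower. In iPS4, 5 were higher (Myc, Mycn, Mycl, Mxd1 and Mnt) and Mxi1 was lower, beside 20.6% and 23.2% of all genes. In iPS5, 3 were higher (Myc, Max and Mnt) and Mycn was lower, beside 13.9% and 13% of all genes. The F test among the lines called 5 members (Myc, Mycn, Mycl, Max and Mnt) and 25.2% of all genes. Of the pairs of lines, iPS1 minus iPS4 called 2 members, iPS1 minus iPS5 6 and iPS4 minus iPS5 3, against 12%, 23% and 13.3% of all genes.

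The iPS5 arrays were dimmer than the others: 47.4% to 65.7% of gene probes were above background per channel there, and 65.2% to 87.1% on the arrays of iPS1 and iPS4. The dye term was called for 24.4% of all genes and for 5 members (Myc, Mycn, Mycl, Mxd1 and Mnt). All 8 pluripotent cell markers, Pou5f1, Sox2 and Nanog among them, were above background in both channels of every array. Pou5f1, the gene of Oct4, and Sox2 were also transduced, so their iPS signal may hold transcripts of the vector. Both enter the medians of these markers. In the mean of the lines Nanog (0.65) and Sall4 (0.65, called in 1 of its 3 probes) were higher and Zfp42 (-2.74) was lower. Over all genes 5.21% were called higher and 4.95% lower there. In iPS1 2 of the 8 were higher and 5 lower, beside 21.5% and 21.2% of all genes. The median of the 8 was -0.52 in iPS1, against 0.10 in iPS4 and 0.35 in iPS5. Of the fibroblast markers, 4 of 10 were lower in the mean of the lines and none was higher, with a median of -0.59. Nor was any higher in that mean at limma's unadjusted p under 0.05. Among single lines, Fn1 was called higher in iPS4 (0.14, adjusted p = 0.0434) and iPS5 (0.27, 0.00538). The lower markers numbered 10 in iPS1, 9 in iPS4 and 7 in iPS5, beside 21.2%, 23.2% and 13% of all genes. The fibroblast median was -0.82 in iPS1, -0.60 in iPS4 and -0.26 in iPS5. The summed signal of these markers, less the local background, ranged from 1204 to 6090 in the iPS channels and from 905 to 13142 in the ES channel. At least 9 of the 10 were above background in each channel. In such bulk RNA, fewer cells of a type and less RNA per cell cannot be told apart, and the part of fibroblast feeder RNA in the members' ratios was not tested.

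Myc encodes the MYC protein that was also delivered by retrovirus. Its brightest probe had log2 ratios of 0.54 (iPS RNA in Cy5) and 0.71 (in Cy3) in iPS1, 1.36 and 1.54 in iPS4, and 1.05 and 1.33 in iPS5. All arrays were above 0, and both arrays of iPS1 lay below all 4 arrays of the other lines. In raw scanner signal, before any normalization, the iPS channel read 625 and the ES channel 256 on the Cy5 array of iPS1, and 351 against 334 on its Cy3 array. On the arrays of iPS4 the iPS and ES signals were 928 and 253, and 802 and 546. On those of iPS5 they were 271 and 74.5, and 233 and 140. The iPS channel was thus the brighter on every array, whichever dye it carried.

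The mean over the lines was 1.09 ± 0.42 (SD, n = 3 lines), a 2.12-fold difference, with a 95% confidence interval of 0.60 to 1.57 and an adjusted p of 0.0482. Against the duplicate arrays, iPS1 stood at 0.62 ± 0.039 (SE), iPS4 at 1.45 ± 0.039 and iPS5 at 1.19 ± 0.039, or 1.54-fold, 2.72-fold and 2.28-fold (adjusted p at most 4.0e-05). Each line was called under all 14 alternatives that were run for it. The call for the mean of 3 lines was closer: its adjusted p ranged from 0.00156 to 0.500 over 19 alternatives and passed in 10, and it was 0.0629 without iPS1, 0.240 without iPS4, 0.0842 without iPS5 and 0.500 where the ES pool was given the same spread as a line.

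Myc had 3 probes. The second, close in brightness to the first, had 0.62 and 0.68 in iPS1, 1.43 and 1.40 in iPS4, and 0.94 and 1.32 in iPS5 (Cy5 array first), with a mean of 1.06 ± 0.39 (adjusted p = 0.0445). The third, the dimmest, gave 0.40 ± 0.26 and was not called (adjusted p = 0.115), although all of its 6 arrays were above 0 too. In it iPS1 stood at 0.14, iPS4 at 0.67 and iPS5 at 0.38, the same order of lines as in the others. The authors' deposited table gave these probes mean log2 ratios of 1.11, 1.10 and 0.45 with p-values of 8e-04, 2e-04 and 0.2834. Where the probes lie in the transcript was not analysed here, so transcripts of the vector and of the gene in the genome cannot be told apart, and the difference between probes was not tested.

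The lines differed in Myc. iPS1 minus iPS4 was -0.82 ± 0.056 (SE, adjusted p = 0.000505), and iPS1 minus iPS5 was -0.56 ± 0.056 (adjusted p = 0.000944), called under 11 and 13 of 14 alternatives. iPS4 minus iPS5 was 0.26 ± 0.056 (adjusted p = 0.0316, called under 3 of 14), but this order turned with the background correction: it was -0.20 with no offset, where iPS4 stood at 1.59 and iPS5 at 1.79. iPS1 was the lowest in every processing run; the order of iPS4 and iPS5 is not settled.

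**Figure D2:**
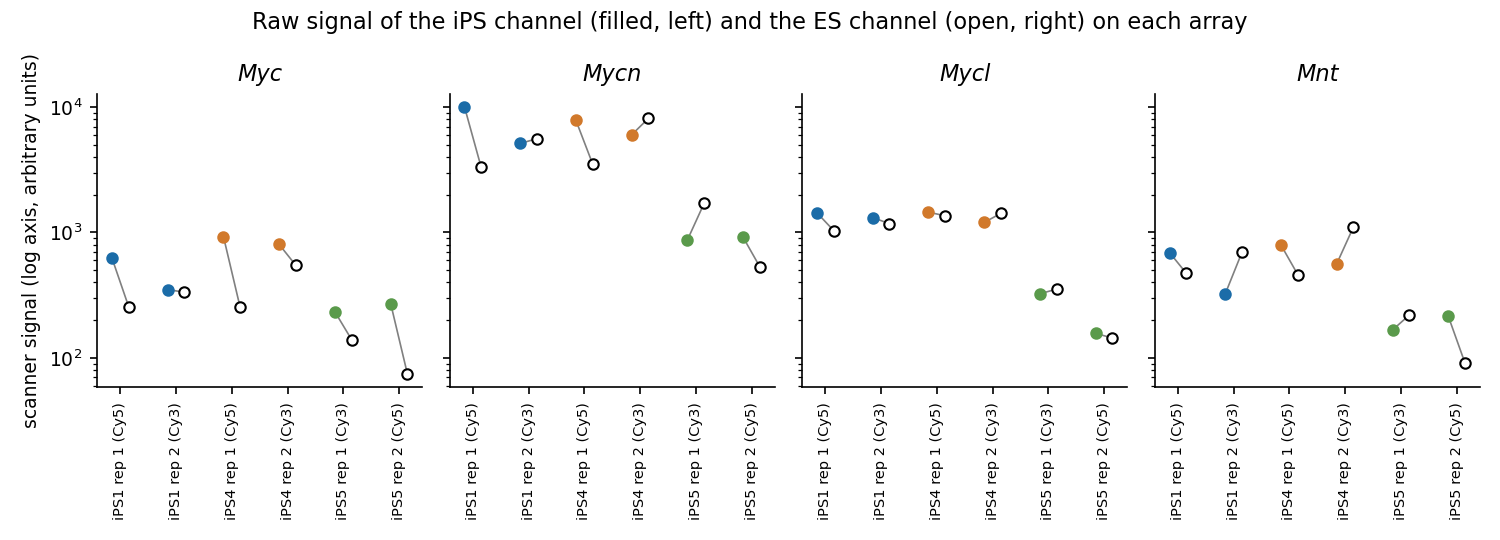
Raw scanner signal (y axis, log scale, arbitrary units) of the iPS channel (filled, coloured by line) and the ES channel (open) of each array (x axis, with the dye of the iPS RNA in brackets), joined by a line. For Myc the filled point is the higher on all 6 arrays, while for Mycn, Mycl and Mnt the sign of the raw difference changes between arrays before normalization.

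Mycn, the paralogue known from embryonic and neural progenitors, did not follow Myc. Its ratios were 0.51 (iPS RNA in Cy5) and 0.79 (in Cy3) in iPS1, 0.44 and 0.80 in iPS4, and -0.33 and 0.02 in iPS5. The 4 arrays of iPS1 and iPS4 lay above both arrays of iPS5, with no overlap. The raw iPS and ES signals were 10048 and 3303, and 5130 and 5603, on the arrays of iPS1, 7822 and 3512, and 6020 and 8134, on those of iPS4, and 913 and 531, and 874 and 1713, on those of iPS5. Each line read with the higher raw signal in whichever channel held Cy5, so that the sign of these ratios rests on the normalization.

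In the mean of the lines Mycn was at 0.37 ± 0.46 (SD, n = 3) and was not called (adjusted p = 0.298). It was called without iPS5, at 0.64 (adjusted p = 0.0264). Single lines stood at 0.65 ± 0.038 (SE) in iPS1 (adjusted p = 2.97e-05), 0.62 ± 0.038 in iPS4 (3.54e-05) and -0.15 ± 0.038 in iPS5 (0.0305). The rise in iPS1 and iPS4 was called under all 14 alternatives, and the fall in iPS5 under 4 of 14. iPS1 minus iPS5 was 0.81 (95% interval 0.68 to 0.93, adjusted p = 0.000216) and iPS4 minus iPS5 was 0.77 (0.65 to 0.90, adjusted p = 0.00091), called under 12 and 10 of 14 alternatives. Between iPS1 and iPS4 the difference was 0.032, with an interval of -0.095 to 0.16. The second, dimmer probe had the same pattern at 0.33, 0.38 and -0.14 in iPS1, iPS4 and iPS5.

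Mycl, another MYC paralogue, had 1 probe, and its ratio followed the dye. It was -0.39, -0.46 and -0.63 on the arrays of iPS1, iPS4 and iPS5 with the iPS RNA in Cy5. With the iPS RNA in Cy3 it was 0.91, 0.79 and 0.65. All Cy3 arrays were above 0 and all Cy5 arrays below it, and the dye term was called (adjusted p = 3.0e-04). Averaged over the dyes, Mycl stood at 0.26 in iPS1 (adjusted p = 0.0015) and 0.17 in iPS4 (0.0109), called in 7 and 6 of 14 alternatives, and at 0.013 in iPS5 (adjusted p = 0.902), and its mean of 0.14 ± 0.12 was not called (adjusted p = 0.203). The deposited ratios, which the authors normalized in a way not given in the sources used here, lay between -0.24 and 0.16 for Mycl on the 6 arrays. Fitted in the same way, they gave 0.15, -0.0064 and -0.050 in iPS1, iPS4 and iPS5, with no line called.

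**Figure D3:**
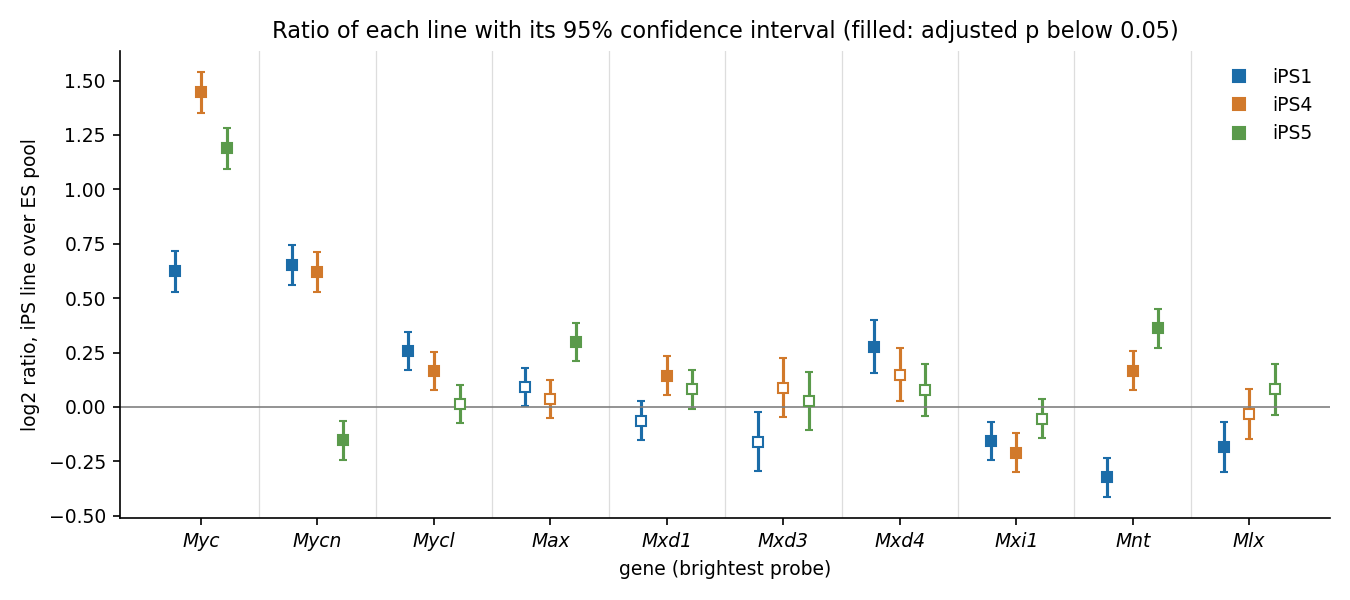
Log2 ratio of each line over the ES pool (y axis) for the brightest probe of each gene (x axis), with its 95% confidence interval from the spread of duplicate arrays; filled squares had an adjusted p under 0.05. Myc is filled in all lines, Mycn in all lines with iPS5 below 0, and Mnt in all lines with iPS1 below 0.

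Max, without which MYC and MXD proteins do not bind DNA, had 1 probe and close duplicate arrays. Its ratios were 0.088 (Cy5) and 0.096 (Cy3) in iPS1, 0.040 and 0.034 in iPS4, and 0.32 and 0.27 in iPS5. All arrays were above 0, and both arrays of iPS5 lay above the rest. In raw signal the Cy5 channel was the brighter on every array, so the sign of these ratios rests on the normalization. iPS5 was called at 0.30 ± 0.037 (SE, 1.23-fold, adjusted p = 0.00149), in 13 of 14 alternatives. iPS1 stood at 0.092 and iPS4 at 0.037, neither called, and the mean of 0.14 ± 0.14 was not called (adjusted p = 0.241). iPS1 minus iPS5 was -0.21 (adjusted p = 0.0363) and iPS4 minus iPS5 -0.26 (0.0245), called under 4 and 6 of 14 alternatives.

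The MXD and MNT repressors had no member called in the mean of the lines, and their median was 0.054. Mnt, a large MAX partner expressed in growing and resting cells alike, had the widest spread between lines of the 5. Its ratios were -0.24 (Cy5) and -0.40 (Cy3) in iPS1, 0.29 and 0.043 in iPS4, and 0.46 and 0.27 in iPS5. Both iPS1 arrays were below 0 and below all arrays of the other lines. iPS1 stood at -0.32 ± 0.038 (SE, adjusted p = 0.000569), iPS4 at 0.17 ± 0.038 (0.0123) and iPS5 at 0.36 ± 0.038 (0.000688), and the mean over lines of opposite sign was 0.068 ± 0.35 (adjusted p = 0.819). The raw iPS and ES signals were 692 and 473, and 324 and 696, on the arrays of iPS1. They were 793 and 462, and 564 and 1108, on those of iPS4, and 215 and 91, and 167 and 219, on those of iPS5.

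The Mnt difference was -0.49 (interval -0.61 to -0.36) for iPS1 minus iPS4 and -0.68 (interval -0.81 to -0.56) for iPS1 minus iPS5, with adjusted p-values of 0.00298 and 0.000387. iPS1 minus iPS5 was called under all 14 alternatives and iPS1 minus iPS4 under 9 of 14; the single lines were called under 13 of 14 for iPS1 and iPS5 and 8 of 14 for iPS4. iPS4 minus iPS5 was -0.20 and was not called (adjusted p = 0.0649). For Mnt the lines ran from iPS1, the lowest, to iPS5, the highest. The fibroblast and the pluripotent marker medians given above had this order too. Whether either is related to Mnt was not tested.

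The 4 MXD genes lay closer to the pool. Mxd1, a repressor that rises as cells differentiate, was at 0.0043 (Cy5) and -0.13 (Cy3) in iPS1, 0.23 and 0.056 in iPS4, and 0.18 and -0.018 in iPS5. The range of iPS5 overlapped those of iPS1 and iPS4, while both iPS1 arrays lay below both iPS4 arrays. iPS4 was called at 0.14 (adjusted p = 0.0209) but in 6 of 14 alternatives only. Mxd3, the MXD gene known from dividing cells, ranged from -0.20 to 0.19 over the arrays, those of iPS5 with 1 channel not above background, and was called in no line, with a mean of -0.014 ± 0.13 (adjusted p = 0.912). Mxd4 was at 0.35 and 0.21 in iPS1, 0.17 and 0.13 in iPS4, and 0.018 and 0.14 in iPS5 (Cy5 array first). On each iPS5 array 1 of the channels was not above background, so the iPS5 ratios, and the mean that uses them, are not measured differences. iPS1 was called at 0.28 (adjusted p = 0.00459, 10 of 14 alternatives), and the mean of 0.17 ± 0.10 was not (adjusted p = 0.125). With all 6 arrays fitted and the line as a random block it was called (adjusted p = 0.0317), and without iPS5 it was 0.21 and not called (adjusted p = 0.094).

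Mxi1, also called Mxd2, was the one member below 0 on all arrays: -0.14 and -0.18 in iPS1, -0.16 and -0.26 in iPS4, and -0.027 and -0.079 in iPS5 (Cy5 array first). iPS1 (-0.16, adjusted p = 0.0151) and iPS4 (-0.21, adjusted p = 0.00407) were called, under 8 and 11 of 14 alternatives, and iPS5 (-0.053, adjusted p = 0.459) was not. The pairwise differences did not pass, so the lines were not shown to differ in Mxi1. Its mean of -0.14 ± 0.079 was not called (adjusted p = 0.129), and was called with the line as a random block (adjusted p = 0.0305).

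The other probes of Mxd1, Mxd3, Mxd4 and Mxi1 were dim. In Mxd3 and Mxd4 the brightest probe was above background in both channels on all arrays of iPS1 and iPS4, but on each iPS5 array 1 channel was not, the iPS channel on the Cy3 array and the ES channel on the Cy5 array. The second Mxd1 probe and the third Mxd4 probe were above background in no channel of iPS5, and no fold is given for them there. The second Mxd1 probe stood at -0.11 in iPS1 and -0.082 in iPS4, neither called, with some channels there not above background. The second Mxd3 probe, close in brightness to the first, was at -0.060 in iPS1, -0.083 in iPS4 and -0.096 in iPS5. It was called in no line, and its mean of -0.080 ± 0.018 was not called either (adjusted p = 0.164). The other 2 Mxd4 probes stood at -0.023 and -0.14 in the mean of the lines. The positive sign of Mxd4 thus rests on 1 of its 3 probes, and the mean of its probes was 0.0030. The third probe was called lower in iPS1, at -0.19 (adjusted p = 0.0139), and in iPS4, at -0.19 (0.0151). Its iPS channel was above background on 1 of the 2 arrays of each. In iPS1 the mean of the Mxd4 probes was 0.0063 and was not called (adjusted p = 0.886). The second Mxi1 probe, listed under the name Gm10197, was at -0.016 and was not called in any line. In the authors' deposited table all probes of members other than Myc had a p-value of 1.

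Mlx, which pairs with the glucose-sensing MondoA and ChREBP proteins (Mlxip and Mlxipl) and with some MXD proteins, was at -0.19 (Cy5) and -0.18 (Cy3) in iPS1, -0.024 and -0.038 in iPS4, and 0.19 and -0.026 in iPS5. Both iPS1 arrays lay below the rest, and iPS1 was called at -0.18 (adjusted p = 0.0237), in 5 of 14 alternatives. iPS1 minus iPS5 was -0.26 (adjusted p = 0.04), in 2 of 14. Its second, dim probe stood at 0.11 in iPS1, of the other sign and not called (adjusted p = 0.0752).

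**Figure D4:**
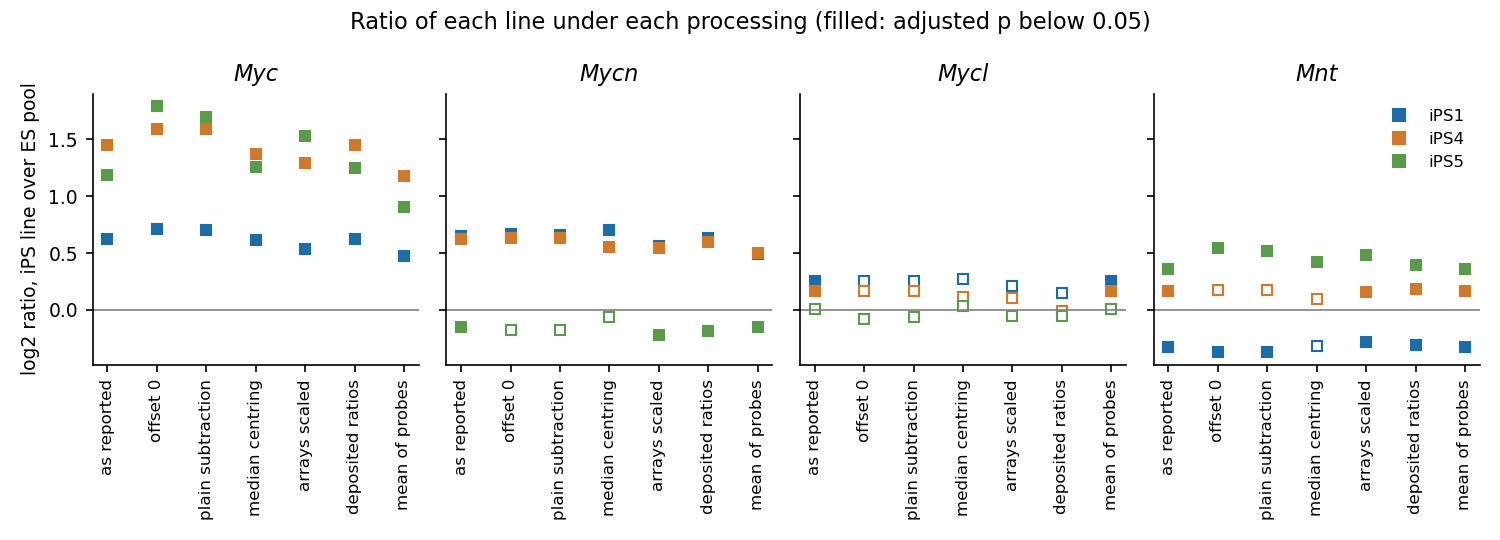
Log2 ratio of each line over the ES pool (y axis) for Myc, Mycn, Mycl and Mnt under 7 ways of processing (x axis); filled squares had an adjusted p under 0.05. iPS1 is the lowest line for Myc and for Mnt in each, iPS5 is the lowest for Mycn, and iPS4 and iPS5 change places for Myc with no offset, plain subtraction and scaled arrays.

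Set side by side within a line, the Myc ratio exceeded the Mnt ratio by 0.95 in iPS1, 1.28 in iPS4 and 0.83 in iPS5, on the log2 scale. Over Max it exceeded by 0.53, 1.41 and 0.89. Over Mycn the difference was -0.028 in iPS1, 0.83 in iPS4 and 1.34 in iPS5 (no test was run on these). They are differences of ratios to the ES pool, not of transcript levels between genes.

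The genes most like each MYC gene over the 6 arrays were found among 10812 other genes above background throughout, by the smallest root mean square difference of log2 ratios. For Myc these were Socs2, an inhibitor of cytokine signals, at 0.15, then B4galt6 at 0.19 and Nlrp4f at 0.23. Socs2 stood at 0.67, 1.52 and 1.03 in iPS1, iPS4 and iPS5. For Mycn they were Phf6 at 0.091, Selenop at 0.12 and Zfp867 at 0.12. For Mycl, with its dye split, they were Slc6a20b at 0.14, Mypn at 0.14 and Nhsl2 at 0.15. The measure was chosen on the same arrays and is a description.

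Around the core network, none of the 6 further members passed in the mean of the lines by its brightest probe. Of the 4 probes of Mga, 1 was called. Mlxip had the smallest p, at -0.15 ± 0.052 (adjusted p = 0.0792), and Mlxipl followed at -0.10 ± 0.16 (adjusted p = 0.449). At an unadjusted p under 0.05, limma gave Mlxip alone. Of 15 coactivator genes, 2 were higher, Wdr5, a reader of histone methylation, at 0.37 ± 0.075 (adjusted p = 0.0318) and Cdk9, the elongation kinase, at 0.28 ± 0.063 (0.0372). The acetyltransferase gene Kat5 was lower at -0.25 ± 0.012 (0.0302). The median of the 15 was 0.16. Over all genes 5.21% were called higher and 4.95% lower in the mean of the lines. Of 11 SIN3 and deacetylase genes, which act with the MXD repressors, none was higher (4 at limma's unadjusted p under 0.05) and 2 were lower: Sin3b, a SIN3 scaffold, at -0.62 ± 0.038 (0.0201), and Ing2 at -0.57 ± 0.070 (0.0206), with a median of 0.063. Of 7 MIZ1 and other partner genes, Nfya (0.45 ± 0.11) and Yy1 (0.24 ± 0.049) were higher and Nfyb (-0.60 ± 0.16) was lower. The calls of Wdr5 and Sin3b rest on 1 of 3 probes each, and that of Ing2 on 2 of 3. Those of Nfya, Nfyb and Yy1 rest on 1 of 2 probes each. Hdac1 was not analysed here.

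Of 14 genes of MYC protein turnover, 3 were higher and 2 lower, beside 5.21% and 4.95% of all genes. Fbxw7, the ubiquitin ligase subunit that marks MYC for destruction, was at 0.44 ± 0.065 (adjusted p = 0.0248, 1 of its 2 probes). Cip2a, which shields MYC from a phosphatase, was at 0.43 ± 0.14 (0.0439), and the kinase gene Aurka at 0.25 ± 0.026 (0.0325). Gsk3a, a kinase that primes MYC for Fbxw7, was lower at -0.30 ± 0.069 (0.0374), and Stub1, named after its value was seen as the other lower gene, was at -0.18 (0.0478). MYC protein itself was not measured.

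Genes commonly raised by MYC showed no common direction in the mean of the lines. Of 42 measured, 6 were higher and 4 lower, beside 5.21% and 4.95% of all genes. The median of the 42 was 0.014, against -0.0049 over all genes. Nme1, a nucleoside kinase, was at 0.77 ± 0.15 (adjusted p = 0.025), and the ribosome assembly genes Nop16 and Nolc1 were at 0.42 ± 0.061 (0.0249) and 0.34 ± 0.047 (0.0276). Eif4ebp1, which restrains translation, was lower at -0.79 ± 0.18 (0.0283). The other called genes were the ribosome assembly genes Nop58, Nop56 and Wdr43, higher, and Shmt2, Eif4a1 and Pa2g4, lower. The calls of Nop16, Nop56 and Wdr43 rest on 1 of 2 probes each, and that of Eif4a1 on 2 of 3. With the mean of a gene's probes, 10 of the list were higher and 3 lower. Among single lines, 12 were higher and 14 lower in iPS1, 15 and 9 in iPS4, and 14 and 5 in iPS5. The shares of all genes were 21.5% and 21.2% in iPS1, 20.6% and 23.2% in iPS4, and 13.9% and 13% in iPS5.

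Genes commonly lowered by MYC were mostly below the pool. Of 12 measured, 5 were lower and 1 was higher, beside 4.95% and 5.21% of all genes. The median of the 12 was -0.56, against -0.0049 over all genes. Ndrg1, a stress and hypoxia gene, was at -1.06 ± 0.057 (adjusted p = 0.0201), on all 6 arrays below 0. Ddit3, a stress factor gene, was at -1.27 ± 0.37 (0.0337), Ndrg2 at -0.73 ± 0.20 (0.0329), and Cdkn1b, the cell cycle inhibitor p27, at -0.33 ± 0.0098 (0.0231; 1 of its 3 probes). Gadd45a was the fifth, and Hexim1, an inhibitor of Cdk9, was the higher one at 0.77 ± 0.24 (0.0396, 1 of its 2 probes). Ddit3 stood at -1.40 in iPS1, -1.56 in iPS4 and -0.86 in iPS5. In the same lines Ndrg1 stood at -0.99, -1.10 and -1.07, Ndrg2 at -0.53, -0.93 and -0.72, and Cdkn1b at -0.32, -0.34 and -0.33. Gadd45a was at -0.59, -0.41 and -0.79. Whether these orders of the lines are related to that of Myc was not tested.

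Of 13 genes of the signals that act on Myc, 4 were higher and none was lower in the mean of the lines, beside 5.21% and 4.95% of all genes. The median of the 13 was 0.30, against -0.0049 over all genes. Il6st, the shared receptor subunit of LIF, was at 0.64 ± 0.12 (adjusted p = 0.025) and Ctnnb1, the Wnt effector beta-catenin, at 0.44 ± 0.080 (0.0276). Id1 and Id2, targets of BMP signals, were at 2.32 ± 0.73 (0.0374) and 0.65 ± 0.18 (0.0352). The calls of Ctnnb1 and Id2 rest on 2 of 3 probes each. Single lines had 8 higher and 0 lower in iPS1 and in iPS4, but 7 and 2 in iPS5. The lower 2 were Tcf7 (-0.27, adjusted p = 0.00359) and Lef1 (-0.20, 0.00923), which stood at 0.44 and 0.74 in iPS1. In the mean of the lines limma gave no lower gene at an unadjusted p under 0.05 either. The called counts of these last 3 lists in that mean all came to 0 when iPS1 or iPS4 was left out. The same held when the ES pool was given a spread of its own, and for the counts over all genes. Without the Cy3 array of iPS5 the raised list had 1 higher and 0 lower, the lowered list 2 lower, and the signals 1 higher.

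**Figure D5:**
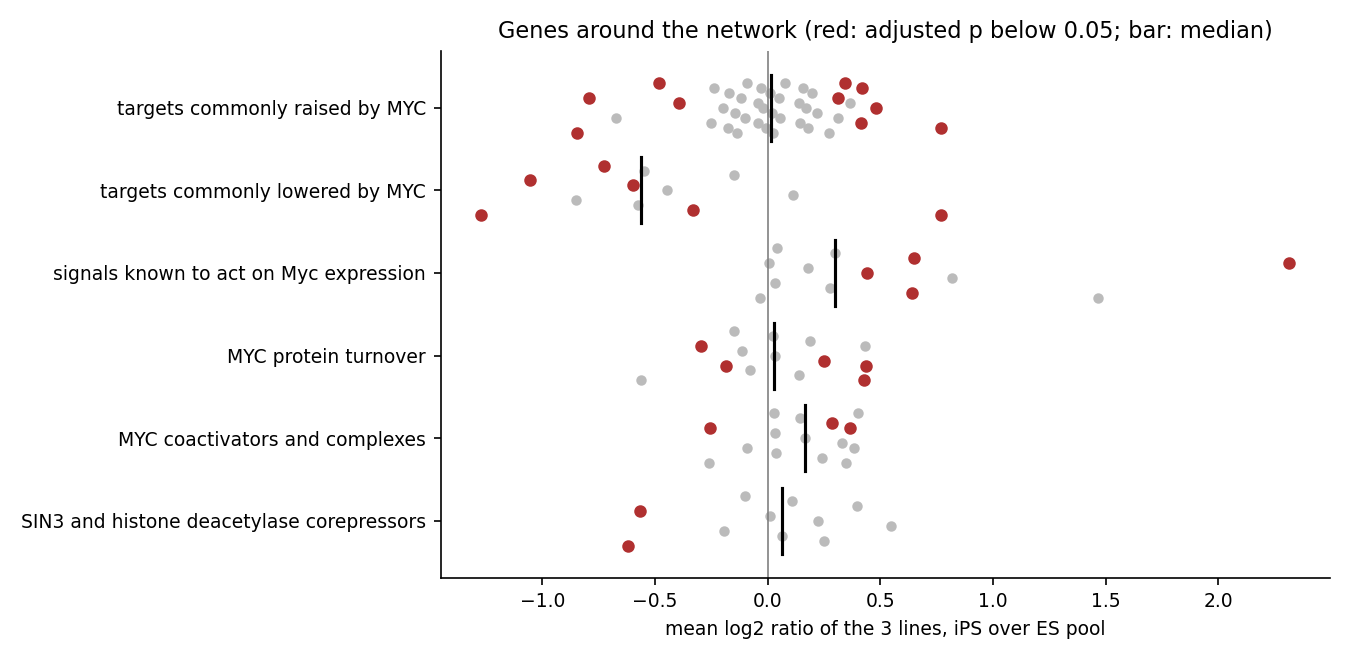
Mean log2 ratio of the 3 lines over the ES pool (x axis) for each gene of 6 lists around the network (y axis, spread vertically only for legibility), red where the adjusted p was under 0.05, with a bar at the list's median. The genes commonly raised by MYC lie on both sides of 0 around a median of 0.014, and those commonly lowered by MYC have a median of -0.56.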

How the data were processed

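Each array held 45220 spots, 41174 of them gene probes and 4046 controls. The raw files were deposited as scanner intensity per spot and channel with local background; channel 1 was Cy5 and channel 2 Cy3, per the labels. The authors also deposited a log2 ratio per spot and array, whose direction was checked against the raw channels as iPS over ES and whose scale and centring are as deposited, by a normalization not given in the sources used here. Their final table gives every reporter's mean log2 ratio together with a p-value, per the file headers; which test gave that p-value is not stated.

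Values in the text start from the raw intensities: normexp background correction with an offset of 50, then loess within each array with controls at weight 0, all with limma 3.58.1 (R 4.3.3, statmod 1.5.0). The offset draws the ratios of dim probes towards 0. Above background means over percentile 95 of 604 spots of a dim control; no member reached the saturation level of 65000. Symbols came from the platform's probe table, updated through RefSeq (34186 probes with 1 symbol, 6988 with none, and 95 symbols unmatched), and a gene's brightest probe stood for it.

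The lines were tested against the pool with limma on 3 line means against 0, two-sided. Single lines, the F test and the pairs were tested with limma on 6 arrays with a dye term, which leaves 2 residual degrees of freedom. P-values were adjusted by Benjamini-Hochberg over all 41174 probes within each comparison. The number of arrays limits the precision. All probes of the 10 members are given, and of each list up to 4 called genes with the smallest p, or, where none was called, the 2 with the smallest p; further names were added after their values were seen. Members and lists were chosen with earlier results of these data known. Alternatives covered background, normalization, scaling, deposited ratios, dim probes, probe choice, arrays and lines left out, the unit of replication, the pool and the dye term. The scripts were tested on simulated data.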

Additional observations from a re-analysis of the deposited data

Results flagged for a closer look

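These members differed between lines by limma's test of the difference itself, relative to the shared ES pool and against the spread of duplicate arrays. For Myc, iPS1 minus iPS4 was -0.82, iPS1 minus iPS5 -0.56 and iPS4 minus iPS5 0.26 on the log2 scale. For Mycn, iPS1 minus iPS5 was 0.81 and iPS4 minus iPS5 0.77. For Mnt, iPS1 minus iPS4 was -0.49 and iPS1 minus iPS5 -0.68. For Max, iPS1 minus iPS5 was -0.21 and iPS4 minus iPS5 -0.26. Mycl gave 0.24 and Mlx -0.26 for iPS1 minus iPS5. Both arrays of a line lay on the same side of both arrays of the other in each of these pairs other than those of Mycl, whose 2 dye orientations overlap between lines. Out of 14 alternatives, those for Myc were called in 11, 13 and 3, for Mycn in 12 and 10, for Mnt in 9 and 14, for Max in 4 and 6, for Mycl in 6 and for Mlx in 2. The iPS5 arrays were dimmer than the rest, with at most 65.7% of gene probes above background in a channel, and the part of this in the differences from iPS5 was not tested.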

How the results depend on the processing

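Of the 10 members, 1 was called in the mean of the lines, 17 calls were made over the single lines and 5 by the F test, beside 1859, 20746 and 4605 calls over all genes. With no background offset there were 8 calls over single lines and 0 in the F test (3 at limma's unadjusted p under 0.05), and over all genes 12267 and 0 (4386 unadjusted). With plain subtraction these were 9 and 2, with 360 genes in the F test and 2815 in the mean of the lines. With median centring they were 8 and 0 (3 unadjusted), with 8892 genes over single lines, 379 in the F test and 2811 in the mean. With no dye term they were 9 and 1, with 10787 and 884 genes. Scaled arrays and the mean of a gene's probes each left 0 members in the mean of the lines (3 and 1 unadjusted). Leaving out 1 array at a time gave 0 to 1 members and 280 to 3315 genes in the mean, and 3 to 9 members and 1936 to 6615 genes in the F test; the lowest genes count in the mean and the 9 members both came without the Cy3 array of iPS5. All 6 arrays gave 3 members and 4979 genes with the line as a random block, and 3 and 5354 with no block. With the ES pool as a sample there were 0 members and 0 genes (1 and 2190 unadjusted). Without iPS1 there were 0 and 0 (2 and 5122 unadjusted), without iPS4 0 and 0 (1 and 3393 unadjusted), and without iPS5 1 member, Mycn, and 2895 genes. Signs turned as follows. Mycl in iPS5 was -0.080 with no offset, -0.062 with plain subtraction, -0.054 with scaled arrays and -0.050 in the deposited ratios, where Mycl in iPS4 was -0.0064. Mycl in the mean was -0.072, -0.063 and -0.068 without the Cy3 array of iPS1, iPS4 and iPS5, within -0.072 to 0.36 over single arrays left out. Without its Cy3 array a line entered the mean with its Cy5 array alone, and that fit has no dye term. Myc for iPS4 minus iPS5 was -0.20 with no offset, -0.11 with plain subtraction and -0.23 with scaled arrays. Median centring gave Max -0.029 and Mxd3 -0.061 in iPS4. The mean of a gene's probes gave Mxd1 -0.0049 and Mlx 0.0049 in the mean of the lines, Mxd4 -0.0089 and Mlx 0.0072 in iPS4, Mxd3 -0.034 in iPS5, and Mycn -0.0080 for iPS1 minus iPS4. With single arrays left out, Mycn for iPS1 minus iPS4 ran from -0.0053 to 0.070, Mxd3 from -0.049 to 0.020 in the mean, -0.052 to 0.23 in iPS4 and -0.040 to 0.095 in iPS5, Mlx from -0.076 to 0.014 in iPS4 and -0.024 to 0.19 in iPS5, and Mxd4 from -0.027 to 0.18 in iPS5. In the mean without iPS1, Mxd3 was 0.058 and Mlx 0.025, and Mnt was -0.078 in the mean without iPS5. Where an array was left out, its line kept fewer arrays and 1 dye orientation only. The cause of the changes of sign was not tested. No paired analysis was possible because the labels give no replicate numbers; the dye term was the only block fitted across lines. A block for slide or scan date was not run, since the file headers used here name none. The dim signal of iPS5 limits what its arrays show for Mxd1, Mxd3 and Mxd4.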
